A study of Mus musculus with 6 samples.

Results

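Ribosome biogenesis and nucleolar genes encode the machinery that transcribes ribosomal RNA, trims and modifies it, and assembles it with proteins into ribosomal subunits. The 47 genes described here are a list of pathway genes given by name, with no threshold on a measured value but with earlier results of these data known, and are 47 of the 54532 genes in the deposited count table. All 47 were found in the table and all had enough reads to be among the 15543 genes tested. Between naive T, Th17 and regulatory T (Treg) cells, 24 of the 47 passed no test of a difference in mRNA level and 23 passed at least 1, where 69.5% of all genes tested passed at least 1. With libraries scaled by total count instead, 29 passed at least 1, where 68.8% of all genes did. On the scale used here, the 47 thus include 24 without a call. The 23 differed in both directions, with Noc4l, Nop2 and Rrp1b higher in Th17 and Treg than in naive cells and Nop10 and Utp14a lower. The higher genes named passed both tests under every alternative processing tried. Under some alternatives Nop10 did not pass in Treg against naive cells, nor Utp14a in Th17 against naive cells.

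RNA polymerase I transcribes one long ribosomal RNA precursor in the nucleolus. Small nucleolar ribonucleoproteins (snoRNPs) of the box C/D and box H/ACA classes guide methylation and pseudouridylation of that RNA, the small-subunit processome folds and cleaves the part that becomes the small subunit, and a further set of factors builds the large subunit. The pathway is known to expand when resting T cells grow and divide, and Myc is a known activator of many of its genes.

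Each type was represented by 2 mRNA-seq libraries, 6 in all. The design sets these cell types side by side to compare their gene expression. Every library is labelled wild type, untreated and thymus. Naive T cells are resting cells before their first encounter with antigen. Th17 cells are helper cells defined by interleukin-17, and Treg cells are suppressive cells defined by Foxp3. Strain, age, the number of animals, sorting and any culture or stimulation are not stated in the labels, and differences in them cannot be told apart from the cell type. Separate animals or cultures are likewise not stated for the libraries of one type, and p-values below reflect how far these libraries differ from each other, a spread that may be technical.

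Library depth was even, at 16458939 to 17901331 counts. Levels are given in CPM, the usual read count of a gene relative to the size of its library, here after scaling by the trimmed mean of M values (TMM). Lineage markers followed the labels: Foxp3 averaged 1008 CPM in Treg cells, with 14.3 in naive cells and 0.696 in Th17 cells, and Il17a had 330.1 and 499.8 CPM in the Th17 libraries and no count in the other 4. All libraries carry the thymus label, and 4 markers of double-positive thymocytes summed to 2.03 to 11.6 CPM in any library. Most of this was Dntt in naive and Th17 libraries and Rag1 in Treg libraries. Markers of other cells also differed between types. The 8 B cell markers summed to 56.5 and 66.5 CPM in naive libraries and 4.91 to 7.30 CPM in the others, with Blk at 0 in both Th17 libraries. The 5 NK cell markers summed to 15.1 and 35.9 CPM in naive libraries and 4.12 to 7.66 CPM in the others. The 5 markers of thymic epithelium and stroma summed to 68.7 and 81.6 CPM in Treg libraries, nearly all of it Epcam with Foxn1 at 0, and to 0.749 to 5.73 CPM elsewhere. The 5 erythroid markers set single libraries apart, at 24.98 CPM in Th17 library 1 and 9.21 CPM in Treg library 5 against 0.429 to 2.19 CPM in the other 4. The 12 proliferation markers summed to 366.5 and 458.7 CPM in naive, 4658 and 4422 CPM in Th17 and 1188 and 1812 CPM in Treg libraries. The part of these cells, or of cell division, in the differences below was not tested. In bulk RNA, a different mix of cells and a different amount of RNA per cell cannot be told apart, and an mRNA library does not show how much ribosomal RNA was made.

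In Th17 against naive cells, 17 of the 47 genes passed the test (edgeR, adjusted p under 0.05), 9 higher and 8 lower, which is 36.2% where 57.7% of all genes tested passed (29.3% higher and 28.4% lower). In Treg against naive cells 13 passed, 6 higher and 7 lower, or 27.7% against 43.4% of all genes (23.6% higher and 19.9% lower). In Treg against Th17 cells 9 passed, 2 higher and 7 lower, or 19.1% against 38.4% of all genes (19.0% higher and 19.4% lower). The sizes were also modest. The median absolute log2 fold change of the members was 0.32, 0.26 and 0.23 in these 3 comparisons, and 0.84, 0.61 and 0.53 over all genes. Among the 6386 genes at least as abundant as the lowest member the medians were 0.59, 0.42 and 0.38, and 62.5%, 47.9% and 42.6% of them passed. A change of at least 2-fold that passed was seen for 4, 2 and 1 members, where the share over all genes was 39.3%, 26.8% and 23.7% and that over the 6386 was 30.2%, 18.3% and 16.6%. These shares describe the libraries and were not tested against each other. The 3 comparisons share libraries, so their counts are not independent.

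The balance of directions and the number of members called depended on how libraries were scaled. Scaled by total count, the median log2 fold change of all genes moved up by 0.23 in Th17 against naive and by 0.18 in Treg against naive cells, and the members split 22 higher to 3 lower in the first (88.0% of calls higher, against 52.9% with the scaling used here) and 10 higher to 2 lower in the second (83.3% against 46.2%). The members' median log2 fold change went from 0.12 to 0.35 in the first and changed sign, from -0.14 to 0.04, in the second. All genes called moved the same way, from 50.8% to 62.6% higher and from 54.3% to 67.0% higher. The Treg against Th17 split was 2 higher to 9 lower on that scale. Members called by total count were 25, 12 and 11 of 47 in the 3 comparisons, in place of 17, 13 and 9. Genes called were 8915, 6776 and 5884 of 15543, in place of 8973, 6748 and 5974. The share of members called thus came nearer to that of all genes in Th17 against naive cells. Changes below are relative to the trimmed-mean scale. Fewer of all genes tested passed in each comparison when a library of either compared type was left out. Single libraries also moved the counts: without Th17 library 1 only 5 members were higher in Th17 than naive cells, and without Th17 library 5 or naive library 5 only 2 or 4 were lower. The 13 Treg against naive calls became 4 without Treg library 1, 6 without Treg library 5 and 7 without naive library 5. The 9 Treg against Th17 calls became 3 without any one of Th17 library 1, Treg library 1 or Treg library 5, and 6 without Th17 library 5, with 1 in place of 2 higher without library 5 of either type.

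**Figure D1:**
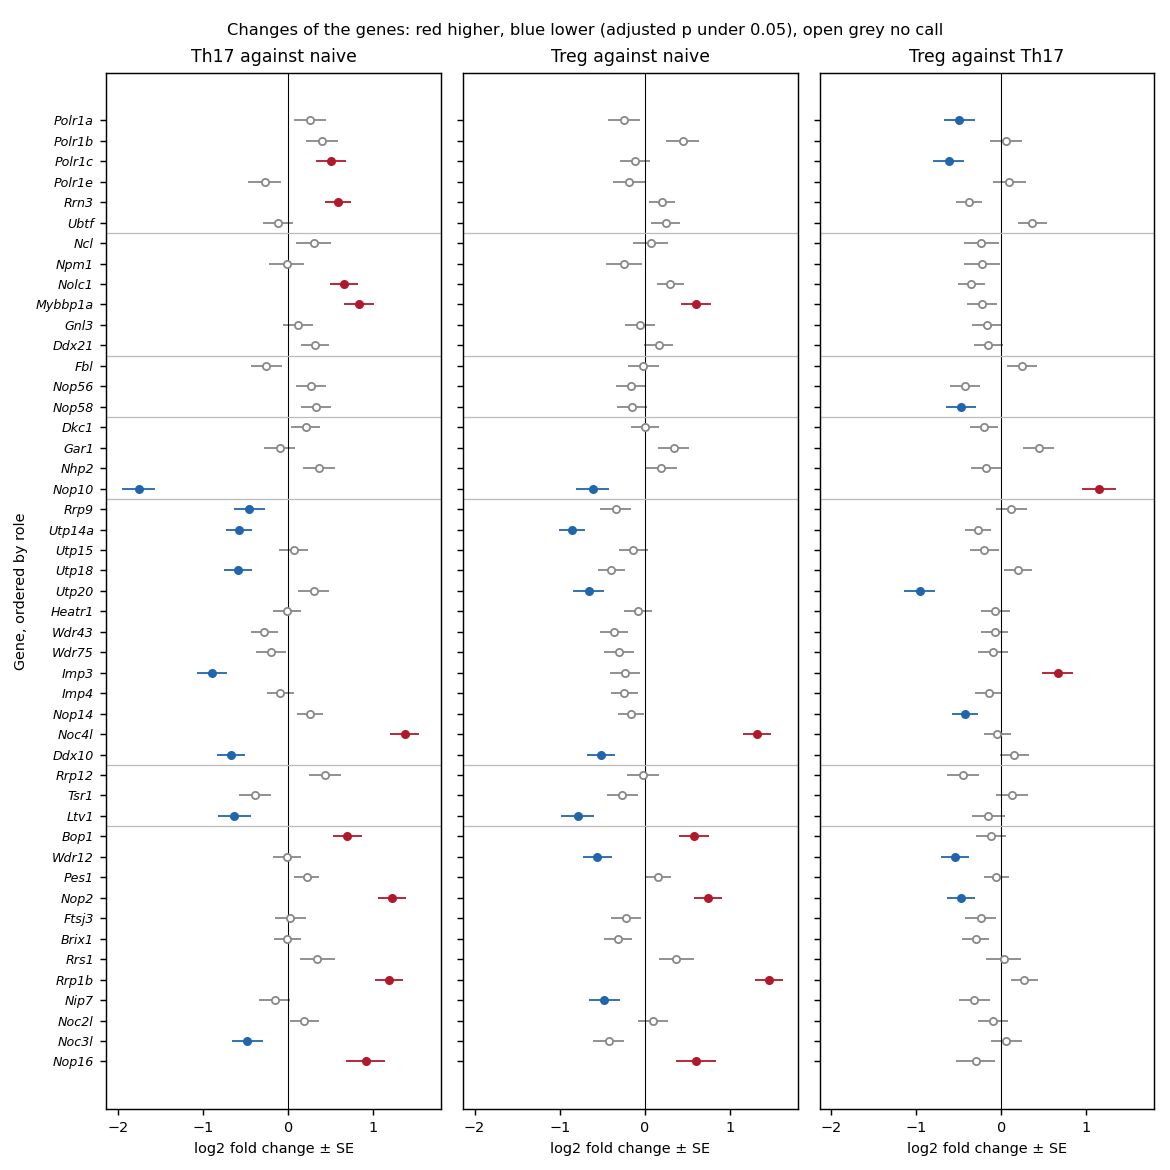
Log2 fold change with its standard error (x axis) for each of the 47 genes (y axis, ordered by role) in the 3 comparisons, where filled red points are higher and filled blue points lower at an adjusted p under 0.05. Most points lie within 1 log2 unit of 0, and Noc4l, Nop2 and Rrp1b on the right and Nop10 on the left stand out in Th17 against naive cells.

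Across the 3 comparisons, 23 of the 47 genes (48.9%) passed at least once and 24 never did, beside 69.5% of all genes that passed at least once. The 24 include Ncl and Npm1, all the RNA polymerase I factors except Polr1a, Polr1c and Rrn3, the methyltransferase gene Fbl and the pseudouridine synthase gene Dkc1. With total count scaling 18 never passed and 29 (61.7%) passed at least once, beside 68.8% of all genes. Ncl, Dkc1, Nop56 and Polr1b were among the 29. On the trimmed-mean scale Mybbp1a, Noc4l, Bop1, Rrp1b, Nop16 and Nop2 were higher, and Utp14a, Ddx10, Ltv1 and Nop10 lower, in each comparison with naive cells, which share the naive libraries. Nop2 and Nop10 were called in all 3 comparisons. Nop2 was highest in Th17 cells and lowest in naive cells, while Nop10 was highest in naive cells and lowest in Th17 cells. The 2 libraries of one type lay wholly above or below those of the other for 26 members in Th17 against naive cells (16 higher and 10 lower, where 78.8% of all genes did not overlap, 39.4% higher and 39.5% lower), for 31 in Treg against naive cells (14 higher and 17 lower, against 71.7%, or 36.5% and 35.2%) and for 23 in Treg against Th17 cells (7 higher and 16 lower, against 72.5%, or 37.1% and 35.4%).

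**Figure D2:**
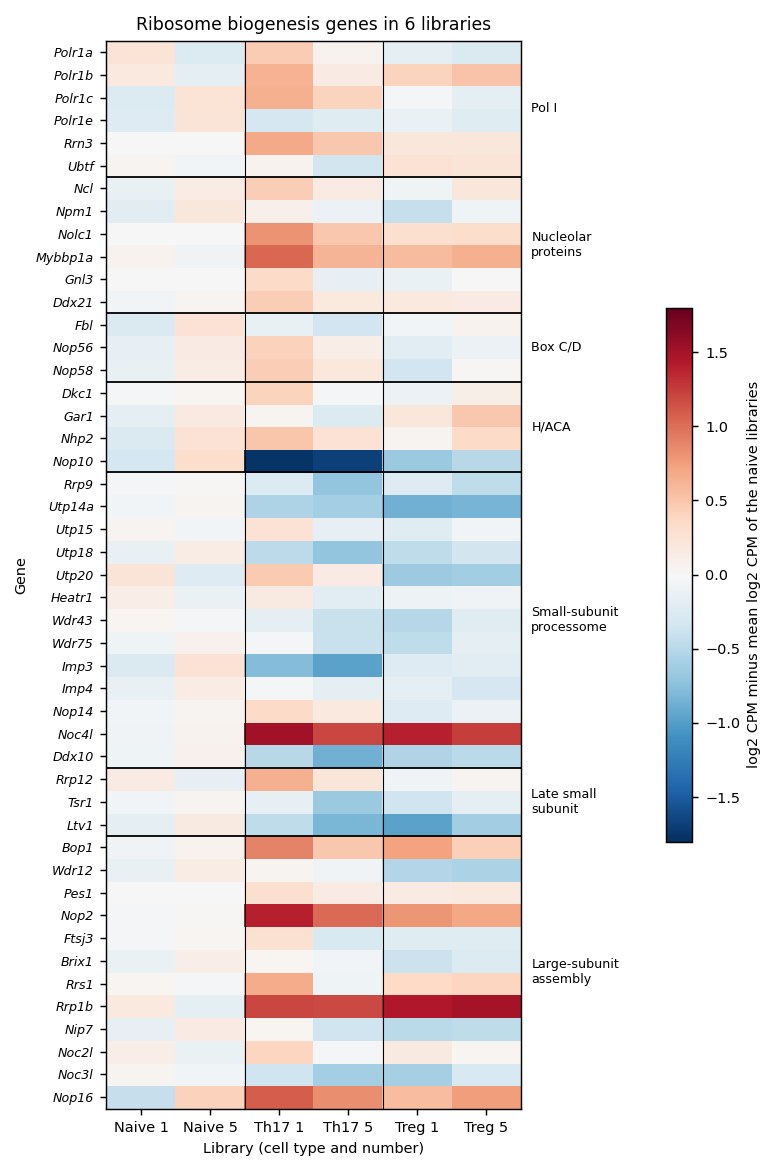
Each row is one of the 47 genes and each column one library, coloured by log2 CPM minus the mean log2 CPM of the naive libraries, with role groups set apart by lines. Rows are mostly pale, and the strong colours are Nop10 and Imp3 (blue in Th17) and Noc4l, Nop2 and Rrp1b (red in Th17 and Treg).

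Since Myc binds the E-box sequence with its partner Max, the 250 bases before each transcription start were searched for CACGTG, which reads the same on both strands and was not combined with any other motif. Windows came from RefSeq on GRCm38.p6 for 42 of the 47 genes, and Rrs1, Bop1, Rrp12, Npm1 and Fbl had none. The letters occurred in 4 of the 42 (9.52%), in 6.86% of 27025 genes with a window and in 9.68% of the 10407 tested genes with one. The 4 genes were Nop2 and Rrn3, both higher in Th17 than naive cells, Utp18, lower there, and Imp4, called in no comparison. Their upstream sequences are shown because they hold the motif, in capitals, and that of Nop10 is shown beside them as the member that differed most, without the motif in its window. Each runs 5′ to 3′ on the strand of the gene.
Nop2, chr6:125131733-125131882, plus strand: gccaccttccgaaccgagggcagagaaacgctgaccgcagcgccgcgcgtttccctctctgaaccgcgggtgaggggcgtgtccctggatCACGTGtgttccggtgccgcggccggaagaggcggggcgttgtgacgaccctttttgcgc
Rrn3, chr16:13780449-13780698, plus strand: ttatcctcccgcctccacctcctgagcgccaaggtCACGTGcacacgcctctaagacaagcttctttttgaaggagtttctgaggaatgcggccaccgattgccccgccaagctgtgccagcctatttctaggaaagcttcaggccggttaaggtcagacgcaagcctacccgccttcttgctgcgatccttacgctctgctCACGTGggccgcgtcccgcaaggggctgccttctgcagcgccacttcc
Utp18, chr11:93885767-93885846, minus strand: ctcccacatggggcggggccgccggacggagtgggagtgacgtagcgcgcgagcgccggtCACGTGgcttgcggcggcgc
Imp4, chr1:34439679-34439828, plus strand: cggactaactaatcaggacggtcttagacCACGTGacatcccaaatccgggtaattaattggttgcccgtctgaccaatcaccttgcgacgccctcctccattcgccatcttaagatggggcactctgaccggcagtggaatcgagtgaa
Nop10, chr2:112261826-112261925, plus strand: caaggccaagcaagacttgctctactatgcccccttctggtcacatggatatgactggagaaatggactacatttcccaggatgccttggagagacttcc
The motif began 60 bases before the start in Nop2, 215 and 48 bases before it in Rrn3, 20 in Utp18 and 121 in Imp4. A match of letters is a description and does not show binding.

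Among genes of ribosomal RNA transcription, 2 of 6 were higher in Th17 than naive cells, none of the 6 passed in Treg against naive cells and 2 were lower in Treg than Th17 cells. Over all genes tested, 57.7%, 43.4% and 38.4% passed in these comparisons, and counts by role below stand beside the same shares. Total count scaling gave 4 higher, 1 higher and 3 lower, adding Polr1a and Polr1b in the first, Polr1b in the second and Rrn3 in the third, and RLE size factors also gave 3 lower in the third. Rrn3 (chr16:13780708-13814839, mm10, plus strand) encodes the initiation factor that makes RNA polymerase I competent to start. Library values are given in the order 1 and 5, the numbers that name the libraries of each type. Rrn3 had 57.9 and 58.4 CPM in the naive, 93.0 and 81.4 CPM in the Th17 and 66.7 and 67.2 CPM in the Treg libraries. Both Th17 libraries lay above all others, and it was 1.499-fold higher in Th17 than naive cells (log2 fold change 0.58 ± 0.15 (SE), adjusted p = 0.00425). In Treg cells it stood 0.20 ± 0.15 log2 units above naive cells (adjusted p = 0.3) and -0.38 ± 0.15 from Th17 cells (adjusted p = 0.0591), neither past the threshold. Polr1c, a subunit shared by RNA polymerases I and III, had 55.2 and 77.6 CPM in the naive, 102 and 86.1 CPM in the Th17 and 64.1 and 58.5 CPM in the Treg libraries. The Th17 libraries were above both other types, by 0.50 ± 0.18 log2 units over naive cells (adjusted p = 0.0268), and Treg cells were lower than Th17 cells (log2 fold change -0.62 ± 0.18 (SE), adjusted p = 0.0138). Polr1a encodes the largest catalytic subunit of RNA polymerase I. It had 105 and 75.4 CPM in the naive, 122 and 92.5 CPM in the Th17 and 78.6 and 74.1 CPM in the Treg libraries. The naive libraries overlapped both other types, and both Treg libraries lay below the Th17 libraries (log2 fold change -0.49 ± 0.19 (SE), adjusted p = 0.0496).

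The remaining 3 of these genes passed in no comparison. Polr1b, the second catalytic subunit, had 51.2 and 40.3 CPM in the naive, 70.0 and 50.2 CPM in the Th17 and 60.0 and 64.5 CPM in the Treg libraries. One Th17 library overlapped the naive ones, whereas both Treg libraries were above them, at 0.44 ± 0.19 log2 units (adjusted p = 0.0716). Polr1e, a polymerase I subunit that takes part in initiation, had 29.6 and 40.6 CPM in the naive, 28.2 and 29.9 CPM in the Th17 and 32.0 and 29.9 CPM in the Treg libraries, with overlap in all 3 comparisons. Ubtf, which binds ribosomal DNA and keeps it open, had 283 and 265 CPM in the naive, 287 and 217 CPM in the Th17 and 328 and 320.1 CPM in the Treg libraries. Its Treg libraries were the highest, at 0.37 ± 0.17 log2 units above Th17 cells (adjusted p = 0.115). The call of Rrn3 was lost only without Th17 library 1 (adjusted p 0.000394 to 0.0599 over 13 alternatives), that of Polr1c in Th17 against naive cells without naive library 1 or Th17 library 1 (adjusted p 0.00183 to 0.206). The Treg against Th17 calls of Polr1a (adjusted p 0.0215 to 0.428) and Polr1c (adjusted p 0.0037 to 0.132) were lost without Th17 library 1, Treg library 1 or Treg library 5, and that of Polr1a also with limma-voom.

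Of 6 genes for abundant nucleolar proteins and regulators, 2 were higher in Th17 than naive cells, 1 in Treg than naive cells, and none passed between Treg and Th17 cells. The first 2 shares were 33.3% and 16.7%, beside 57.7% and 43.4% of all genes. With total count scaling 4 were higher in Th17, with Ncl and Ddx21 added, and 2 in Treg cells, with Nolc1 added. Mybbp1a encodes a nucleolar protein first known as a partner of Myb. It had 208 and 189.8 CPM in the naive, 405 and 303 CPM in the Th17 and 294 and 308 CPM in the Treg libraries (chr11:72441355-72451768, plus strand). Both naive libraries were below the other 4, with 0.83 ± 0.18 log2 units between Th17 and naive cells (adjusted p = 0.00107) and 0.60 ± 0.18 between Treg and naive cells (adjusted p = 0.0136). Nolc1, a chaperone-like protein that shuttles with snoRNPs, had 112 and 113 CPM in the naive, 198 and 157 CPM in the Th17 and 137 and 139.6 CPM in the Treg libraries. The 3 types did not overlap, in the order Th17, Treg and naive, and it passed in Th17 against naive cells alone of the 3 (log2 fold change 0.66 ± 0.16 (SE), adjusted p = 0.00279), with 0.30 ± 0.16 in Treg against naive cells (adjusted p = 0.143).

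Nucleolin and nucleophosmin, the most abundant proteins of the nucleolus, passed in no comparison. Ncl, for nucleolin, had 757 and 908 CPM in the naive, 1129.8 and 922 CPM in the Th17 and 788 and 957 CPM in the Treg libraries. Th17 library 1 was the highest, and the log2 fold changes were 0.30 ± 0.20 in Th17 (adjusted p = 0.221) and 0.07 ± 0.20 in Treg cells (adjusted p = 0.818) against naive cells. Npm1, for nucleophosmin, had 826 and 1090.0 CPM in the naive, 1009 and 882 CPM in the Th17 and 713 and 902 CPM in the Treg libraries. The naive libraries enclosed both Th17 libraries, and the difference between Th17 and naive cells was -0.02 ± 0.21 (adjusted p = 0.947). Per kilobase of principal transcript Npm1 was the highest member in naive cells at 587 CPM per kilobase, followed by Fbl at 145, Nop56 at 128 and Ncl at 102, while Wdr12 was the lowest at 5.33. These levels and their order depend on the length used: the table lists 2665 bases for Npm1, whose principal transcript has 1633. Per kilobase of the listed length Npm1 was still the highest in naive cells, at 359.5 CPM per kilobase. Imp3 at 93.8, Nop10 at 92.2 and Ncl at 81.7 then came before Nop56 at 58.4 and Fbl at 41.3. Gnl3, for the nucleolar GTPase nucleostemin, had 96.7 and 96.3 CPM in the naive, 123 and 86.8 CPM in the Th17 and 89.0 and 96.9 CPM in the Treg libraries, and its Th17 libraries lay on either side of all others. Ddx21, for an RNA helicase of the nucleolus, had 303 and 325 CPM in the naive, 428 and 353 CPM in the Th17 and 355 and 348 CPM in the Treg libraries. All 4 Th17 and Treg libraries were above the naive ones, yet neither difference passed (0.32 ± 0.17 with adjusted p = 0.125, and 0.16 ± 0.17 with adjusted p = 0.47). Mybbp1a kept its call in Th17 against naive cells in all 13 alternatives (highest adjusted p = 0.0251) and lost it in Treg against naive cells without naive library 5, Treg library 1 or Treg library 5 (adjusted p 0.00206 to 0.084). Nolc1 lost its call without Th17 library 1 (adjusted p 0.000253 to 0.0589).

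**Figure D3:**
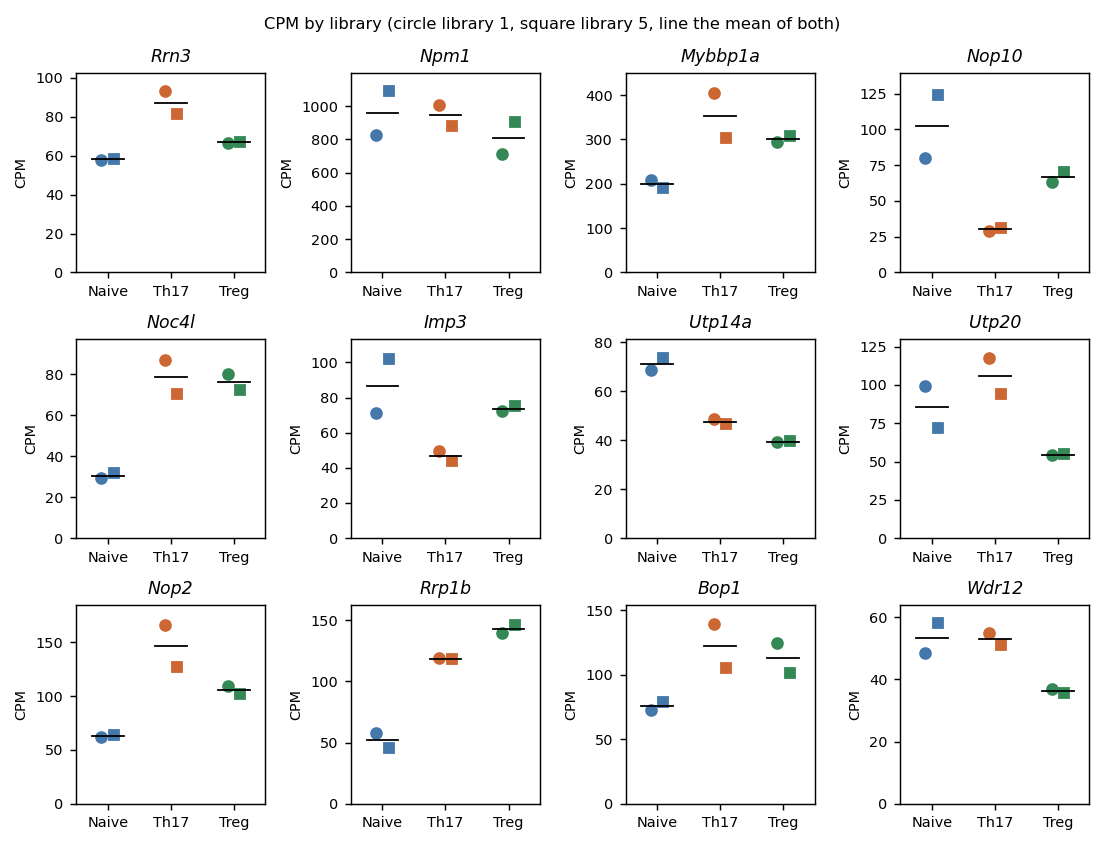
CPM (y axis, from 0) of 12 members in each library by cell type (x axis), with circles for library 1, squares for library 5 and lines at the mean of both. Noc4l, Nop2, Rrp1b, Mybbp1a and Bop1 sit above naive in Th17 and Treg, Nop10 is lowest in Th17, and Npm1 libraries overlap.

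The box C/D core genes showed 1 call among 3 genes and 3 comparisons. With total count scaling Nop56 and Nop58 were both higher in Th17 than naive cells and lower in Treg than Th17 cells, and RLE size factors gave the second of these for both. Nop58, a scaffold protein of box C/D snoRNPs, had 135 and 161 CPM in the naive, 201 and 168 CPM in the Th17 and 116 and 149.6 CPM in the Treg libraries. Both Th17 libraries were above all others, and Treg cells were lower than Th17 cells (log2 fold change -0.47 ± 0.18 (SE), adjusted p = 0.0455), a call lost without Th17 library 1, Th17 library 5 or Treg library 1 (adjusted p 0.0266 to 0.409). Nop56, its partner scaffold, had 215 and 263 CPM in the naive, 318 and 259 CPM in the Th17 and 207 and 222 CPM in the Treg libraries. One Th17 library fell among the naive ones while both exceeded the Treg libraries, and Treg differed from Th17 cells by -0.43 ± 0.17, short of the threshold (adjusted p = 0.0641). Fbl encodes fibrillarin, the methyltransferase of these particles, and had 143 and 204 CPM in the naive, 155 and 135 CPM in the Th17 and 165 and 178 CPM in the Treg libraries. All but Th17 library 5 lay between the naive libraries, and the largest difference was -0.26 ± 0.18 in Th17 against naive cells (adjusted p = 0.238).

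Introns of 7 members hold 21 annotated snoRNA genes in GENCODE release M21 on GRCm38: 5 in Nop56, 4 in Nop58, 3 each in Ncl, Gnl3 and Wdr43, 2 in Tsr1 and 1 in Dkc1. The following 4, of the box C/D class, are shown as the guide RNAs that these genes carry in their introns, 2 of them in the scaffold genes Nop56 and Nop58 and 2 in Ncl and Gnl3. The capitals mark the box C letters TGATGA and the last box D letters CTGA, found by letter search in the transcript sequences. All run 5′ to 3′.
Snord82 in Ncl, chr1:86356261-86356330, minus strand: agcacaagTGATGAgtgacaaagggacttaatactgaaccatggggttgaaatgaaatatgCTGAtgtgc
Snord69 in Gnl3, chr14:31014287-31014366, minus strand: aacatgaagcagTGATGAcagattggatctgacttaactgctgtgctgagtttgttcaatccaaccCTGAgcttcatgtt
Snord110 in Nop56, chr2:130275506-130275573, plus strand: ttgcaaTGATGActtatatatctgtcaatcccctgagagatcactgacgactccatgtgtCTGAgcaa
Snord11 in Nop58, chr1:59704790-59704873, plus strand: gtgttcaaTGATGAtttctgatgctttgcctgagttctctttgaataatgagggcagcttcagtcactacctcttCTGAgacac
Mature snoRNAs carry no poly(A) tail, so their levels were not read from these mRNA libraries. Their 4 host genes had the mRNA values given above, and of these hosts Nop58 alone passed a test.

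The box H/ACA core held the member with the largest change. Nop10 (chr2:112261926-112263269, plus strand), a small protein that binds the pseudouridine synthase, had 80.3 and 124 CPM in the naive, 29.3 and 31.1 CPM in the Th17 and 63.1 and 70.5 CPM in the Treg libraries. The 3 types did not overlap: both naive libraries were highest and both Th17 libraries lowest. It was 3.38-fold lower in Th17 than naive cells (log2 fold change -1.76 ± 0.20 (SE), adjusted p = 3.2e-06), 1.53-fold lower in Treg than naive cells (log2 fold change -0.61 ± 0.19 (SE), adjusted p = 0.0182) and 2.21-fold higher in Treg than Th17 cells (log2 fold change 1.15 ± 0.20 (SE), adjusted p = 0.000315). None of its 3 partners passed a test on this scale. With total count scaling Dkc1 and Nhp2 were higher in Th17 than naive cells, and Gar1 in Treg than naive cells. Dkc1, the pseudouridine synthase dyskerin, had 99.1 and 104 CPM in the naive, 134 and 101 CPM in the Th17 and 94.7 and 109 CPM in the Treg libraries. Gar1, which helps release the modified RNA, had 42.3 and 52.8 CPM in the naive, 49.1 and 39.7 CPM in the Th17 and 54.5 and 65.8 CPM in the Treg libraries. Nhp2, which binds the guide RNA, had 59.4 and 84.6 CPM in the naive, 100.2 and 84.7 CPM in the Th17 and 73.3 and 90.4 CPM in the Treg libraries. Dkc1 libraries overlapped between all types, Gar1 was highest in Treg cells and Nhp2 in Th17 library 1, and the lowest adjusted p among these 3 genes was 0.0727, for Gar1 in Treg against Th17 cells. The calls of Nop10 in both comparisons with Th17 cells held in all 13 alternatives (highest adjusted p = 5.7e-05 and 0.00402), whereas the call in Treg against naive cells was lost with total count scaling and without naive library 5, Treg library 1 or Treg library 5 (adjusted p 0.00154 to 0.28).

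The small-subunit processome had calls in both directions, with 1 of 13 genes higher and 5 lower in Th17 than naive cells, 1 higher and 3 lower in Treg than naive cells, and 1 higher and 2 lower in Treg than Th17 cells. Shares called were 46.2%, 30.8% and 23.1%, beside 57.7%, 43.4% and 38.4% of all genes. Scaled by total count, the first split turned to 3 higher and 2 lower and the second to 1 and 1. Noc4l (chr5:110648418-110653417, minus strand), a nucleolar protein that works with Nop14 in yeast, had 29.2 and 31.8 CPM in the naive, 87.2 and 70.4 CPM in the Th17 and 80.2 and 72.3 CPM in the Treg libraries. All 4 Th17 and Treg libraries were more than 2-fold above both naive ones, at 30.5 ± 1.85 CPM in naive (SD, n = 2), 78.8 ± 11.9 CPM in Th17 and 76.3 ± 5.56 CPM in Treg cells. It was 2.58-fold higher in Th17 (log2 fold change 1.37 ± 0.17 (SE), adjusted p = 7.7e-06) and 2.50-fold higher in Treg than naive cells (log2 fold change 1.32 ± 0.17 (SE), adjusted p = 1.9e-05), and Treg and Th17 cells overlapped (-0.05 ± 0.16, adjusted p = 0.849). Nop14 itself had 67.2 and 71.6 CPM in naive, 87.9 and 78.4 CPM in Th17 and 59.1 and 64.5 CPM in Treg libraries, and passed only as lower in Treg than Th17 cells (log2 fold change -0.43 ± 0.15 (SE), adjusted p = 0.0378).

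Imp3 (chr9:56937475-56938398, plus strand), which joins the U3 snoRNA to the precursor RNA, had 71.2 and 102 CPM in the naive, 49.4 and 43.7 CPM in the Th17 and 72.5 and 74.97 CPM in the Treg libraries. Both Th17 libraries were below all others, by -0.90 ± 0.18 log2 units against naive cells (adjusted p = 0.000689), while Treg libraries fell between the naive libraries (-0.23 ± 0.18, adjusted p = 0.316) and were higher than Th17 libraries (0.66 ± 0.18, adjusted p = 0.00922). Its partner Imp4, with 74.5 and 89.5 CPM in naive, 80.3 and 73.3 CPM in Th17 and 72.5 and 66.1 CPM in Treg libraries, passed in no comparison. Imp3 and Nop10, the 2 members with the largest falls in Th17 cells, have short principal transcripts of 924 and 1109 bases. Nhp2, between them at 1042 bases, was at 0.36 ± 0.19 there without passing. The next shortest, Fbl, Gar1 and Polr1c at 1197, 1271 and 1314 bases, were at -0.26, -0.10 and 0.50. The part of transcript length in these differences was not tested. Over all 47 members the Spearman correlation of the Th17 against naive log2 fold change with transcript length was 0.15, and over the 12509 genes with a length it was 0.16, given as descriptions across genes.

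Utp14a (chrX:48256862-48282453, plus strand), a processome factor that activates the helicase Dhr1 in yeast, had 68.7 and 73.6 CPM in the naive, 48.5 and 46.6 CPM in the Th17 and 39.1 and 39.6 CPM in the Treg libraries. The types did not overlap, in the order naive, Th17 and Treg. It was lower in Th17 (log2 fold change -0.58 ± 0.16 (SE), adjusted p = 0.0052) and in Treg than naive cells (log2 fold change -0.85 ± 0.16 (SE), adjusted p = 0.000502). Utp20, a very large scaffold protein of the processome, had 99.6 and 71.9 CPM in the naive, 117 and 94.0 CPM in the Th17 and 54.0 and 54.8 CPM in the Treg libraries. Both Treg libraries were below the other 4, which overlapped one another, and Utp20 was 1.94-fold lower in Treg than Th17 cells (log2 fold change -0.96 ± 0.18 (SE), adjusted p = 0.000731) and 1.58-fold lower than in naive cells (log2 fold change -0.66 ± 0.18 (SE), adjusted p = 0.00907). Heatr1, the processome scaffold that also supports transcription of ribosomal RNA, had 132 and 112 CPM in the naive, 137 and 106 CPM in the Th17 and 115 and 116 CPM in the Treg libraries, with overlap between all types and log2 fold changes of -0.01 ± 0.17, -0.08 ± 0.17 and -0.07 ± 0.17.

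Ddx10, a helicase of the processome, was lower in Th17 (log2 fold change -0.67 ± 0.17 (SE), adjusted p = 0.00319) and in Treg than naive cells (log2 fold change -0.52 ± 0.17 (SE), adjusted p = 0.021). Utp18 averaged 87.0 ± 11.2 CPM in naive cells (SD, n = 2) and was lower in Th17 cells, at 57.9 ± 6.82 CPM (log2 fold change -0.59 ± 0.16 (SE), adjusted p = 0.00654), and stood at -0.39 ± 0.16 in Treg against naive cells (adjusted p = 0.0647). Rrp9, a protein specific to the U3 snoRNP, was lower in Th17 cells by a narrow margin (log2 fold change -0.46 ± 0.18 (SE), adjusted p = 0.0445), a call that 10 of 13 alternatives lost (adjusted p 0.0177 to 0.423), among them either naive library, Th17 library 5 or either Treg library left out. Utp15, Wdr43 and Wdr75, which belong with Heatr1 to the subcomplex that joins the nascent transcript first, passed in no comparison (log2 fold changes of 0.07 ± 0.17, -0.28 ± 0.16 and -0.20 ± 0.18 in Th17 and -0.14 ± 0.17, -0.36 ± 0.16 and -0.30 ± 0.18 in Treg against naive cells). Noc4l in both comparisons with naive cells, Imp3 in Th17 against naive, Utp14a in Treg against naive and Utp20 in Treg against Th17 cells kept their calls in all 13 alternatives. Without Th17 library 5 the Th17 against naive calls of Utp14a (adjusted p 0.00446 to 0.0839), Utp18 (adjusted p 0.00481 to 0.0969) and Ddx10 (adjusted p 0.00248 to 0.0753) were lost, and that of Utp18 also without naive library 5. Total count scaling lost those of Utp14a and Utp18. The call of Imp3 in Treg against Th17 cells was lost without Th17 library 5 or Treg library 5 (adjusted p 0.00224 to 0.0802). In Treg against naive cells, Utp20 (adjusted p 0.00296 to 0.0963) and Ddx10 (adjusted p 0.0172 to 0.141) lost theirs with total count scaling and without either Treg library. Utp20 also lost its call without naive library 1 and Ddx10 without naive library 5. Nop14 lost its call in 5 of 13 alternatives (adjusted p 0.0246 to 0.27), among them each library of Treg or Th17 cells left out.

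Of the 3 genes of late small-subunit maturation, Ltv1 was lower in both Th17 and Treg cells than in naive cells and the others did not pass, although Rrp12 was higher in Th17 than naive cells with total count scaling or RLE size factors. Ltv1 (chr10:13178140-13193168, minus strand), which leaves the small-subunit precursor near the end of its assembly, had 54.2 and 67.2 CPM in the naive, 44.1 and 34.0 CPM in the Th17 and 31.1 and 39.1 CPM in the Treg libraries. Both naive libraries were above the other 4 (log2 fold change -0.64 ± 0.19 (SE), adjusted p = 0.0116 in Th17 and log2 fold change -0.79 ± 0.19 (SE), adjusted p = 0.00447 in Treg cells). Tsr1, a GTPase-like protein of the small-subunit precursor, had 64.6 and 69.6 CPM in the naive, 60.3 and 42.1 CPM in the Th17 and 52.4 and 59.2 CPM in the Treg libraries. Its naive libraries were also the highest, but neither -0.39 ± 0.18 in Th17 (adjusted p = 0.0819) nor -0.26 ± 0.18 in Treg cells (adjusted p = 0.261) passed. Rrp12, which helps export the precursor, had 45.7 and 37.3 CPM in the naive, 64.1 and 48.1 CPM in the Th17 and 39.3 and 42.7 CPM in the Treg libraries. Th17 libraries were the highest at 0.43 ± 0.19 over naive cells (adjusted p = 0.0586). The Th17 call of Ltv1 was lost with total count scaling and without naive library 5 or Th17 library 5 (adjusted p 0.00725 to 0.142), and its Treg call without naive library 5 or Treg library 1 (adjusted p 0.000669 to 0.0767).

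In large-subunit assembly 4 of 12 genes were higher and 1 lower in Th17 than naive cells, 4 higher and 2 lower in Treg than naive cells, and 2 lower in Treg than Th17 cells. Shares called were 41.7%, 50.0% and 16.7%, beside 57.7%, 43.4% and 38.4% of all genes. Total count scaling left no large-subunit call lower against naive cells, with 6 higher in Th17 and 5 in Treg cells. Rrp1b (chr17:32036100-32062865, plus strand), a nucleolar protein related to yeast Rrp1, had 58.1 and 45.8 CPM in the naive, 119 and 118 CPM in the Th17 and 139.6 and 146 CPM in the Treg libraries. The types did not overlap, with naive lowest and Treg highest. It was 2.28-fold higher in Th17 (log2 fold change 1.19 ± 0.16 (SE), adjusted p = 2.1e-05) and 2.75-fold higher in Treg than naive cells (log2 fold change 1.46 ± 0.16 (SE), adjusted p = 5.1e-06), and 0.27 ± 0.16 between Treg and Th17 cells did not pass (adjusted p = 0.197). Nop2 (chr6:125131909-125144753, plus strand), a methyltransferase of large-subunit ribosomal RNA and one of the genes with CACGTG shown above, had 62.0 and 63.6 CPM in the naive, 166 and 127 CPM in the Th17 and 109 and 102 CPM in the Treg libraries. No 2 types overlapped, and Nop2 was 2.34-fold higher in Th17 (log2 fold change 1.22 ± 0.17 (SE), adjusted p = 2.0e-05) and 1.68-fold higher in Treg than naive cells (log2 fold change 0.74 ± 0.16 (SE), adjusted p = 0.00217). Treg cells were lower than Th17 cells (log2 fold change -0.48 ± 0.16 (SE), adjusted p = 0.0307), which was lost without Th17 library 1, Treg library 1 or Treg library 5 (adjusted p 0.0186 to 0.388). Rrp1b and Nop2 kept their calls against naive cells in all 13 alternatives.

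Bop1, Pes1 and Wdr12 encode the PeBoW complex, whose 3 proteins act together on the large-subunit precursor, and their mRNAs had different calls. Bop1 had 72.4 and 78.8 CPM in the naive, 139.6 and 105 CPM in the Th17 and 124 and 101 CPM in the Treg libraries. Its naive libraries were below all others (log2 fold change 0.70 ± 0.18 (SE), adjusted p = 0.00347 in Th17 and log2 fold change 0.58 ± 0.18 (SE), adjusted p = 0.0156 in Treg cells). Pes1 had 85.2 and 86.1 CPM in the naive, 104 and 95.1 CPM in the Th17 and 94.9 and 96.6 CPM in the Treg libraries. Its naive libraries were lowest too, but 0.22 ± 0.15 in Th17 (adjusted p = 0.214) and 0.16 ± 0.15 in Treg cells (adjusted p = 0.403) did not pass. Wdr12 had 48.5 and 58.2 CPM in the naive, 54.8 and 50.9 CPM in the Th17 and 36.8 and 35.7 CPM in the Treg libraries. Here the Treg libraries were below the other 4, 1.47-fold lower than naive cells (log2 fold change -0.56 ± 0.17 (SE), adjusted p = 0.0146) and 1.46-fold lower than Th17 cells (log2 fold change -0.54 ± 0.17 (SE), adjusted p = 0.018), and Th17 and naive libraries overlapped. The Th17 call of Bop1 was lost without Th17 library 1 (adjusted p 0.000165 to 0.0687) and its Treg call without naive library 1 or Treg library 1 (adjusted p 0.00279 to 0.167). That of Wdr12 against naive cells was lost with total count scaling and without naive library 5 or either Treg library (adjusted p 0.0102 to 0.0985), and that against Th17 cells without any one of the 4 libraries compared (adjusted p 0.01 to 0.123).

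Nop16, a large-subunit factor of low level here, averaged 25.8 ± 10.1 CPM in naive, 48.5 ± 5.86 CPM in Th17 and 39.3 ± 3.85 CPM in Treg cells (SD, n = 2). It was higher in Th17 (log2 fold change 0.91 ± 0.23 (SE), adjusted p = 0.00394), in all 13 alternatives, and in Treg than naive cells (log2 fold change 0.61 ± 0.23 (SE), adjusted p = 0.0485), which 6 of 13 lost (adjusted p 0.00288 to 0.346), among them naive library 1 or either Treg library left out. Noc3l, a factor that pairs with Noc2 in yeast, had 50.4 and 46.98 CPM in the naive, 38.1 and 31.7 CPM in the Th17 and 32.2 and 40.4 CPM in the Treg libraries. It was lower in Th17 than naive cells (log2 fold change -0.48 ± 0.18 (SE), adjusted p = 0.0355), lost in 7 of 13 alternatives (adjusted p 0.0297 to 0.283), among them either naive library, Th17 library 5 or Treg library 5 left out. Nip7 was lower in Treg than naive cells (log2 fold change -0.48 ± 0.18 (SE), adjusted p = 0.0469), lost in 9 of 13 (adjusted p 0.0304 to 0.268), among them naive library 5 or any Th17 or Treg library left out. Noc2l, Ftsj3, Brix1 and Rrs1 passed in no comparison, with log2 fold changes of 0.19 ± 0.17, 0.03 ± 0.18, -0.01 ± 0.16 and 0.34 ± 0.21 in Th17 and 0.10 ± 0.17, -0.22 ± 0.18, -0.31 ± 0.16 and 0.37 ± 0.21 in Treg against naive cells.

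Summed over the 47 genes, the level was 5691 and 6368 CPM in naive, 7411 and 6036 CPM in Th17 and 5761 and 6273 CPM in Treg libraries. Th17 library 1 was the highest and the other 5 overlapped. As a share of all counts, before scaling, the 47 genes took 0.546 ± 0.0145% in naive, 0.719 ± 0.103% in Th17 and 0.620 ± 0.0323% in Treg cells (SD, n = 2), and there the naive libraries lay below all others. The sums are a description and carry no test. Within Th17 cells, 45 of the 47 genes were higher in library 1 than in library 5, with a median log2 ratio of 0.30, where 47.1% of all genes tested were. Th17 library 1 is also the library with the highest erythroid sum, given above. Within naive cells 14 of 47 were higher in library 1 (52.1% of all genes) and within Treg cells 13 of 47 (49.1%). In naive cells the log2 ratio of library 1 to library 5 followed transcript length, with a Spearman correlation of 0.63 over the 47 genes and 0.44 over 12509 genes, both across genes of the same 2 libraries. The same correlations were 0.13 and 0.02 in Th17 and 0.21 and 0.14 in Treg cells. The part of these library differences in the calls was not tested beyond leaving out each library.

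**Figure D4:**
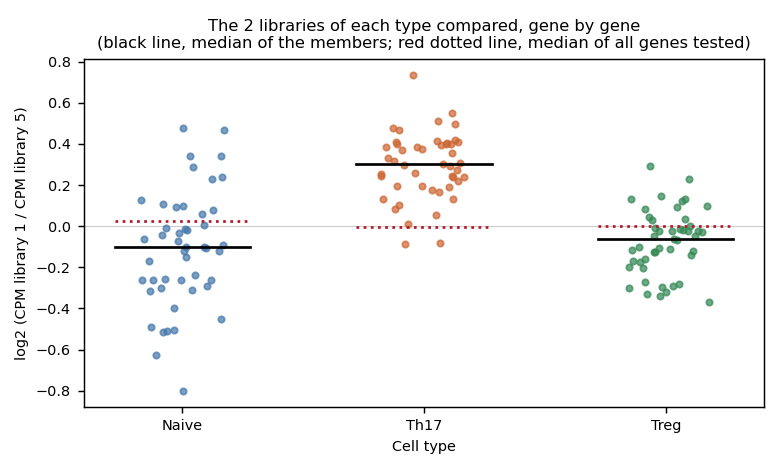
Each point is one of the 47 genes, placed by the log2 ratio of its CPM in library 1 to that in library 5 (y axis) of one cell type (x axis), with the members' median as a black line and that of all genes as a red dotted line. In Th17 cells 45 points lie above 0 while the all-gene median is at 0, and in naive and Treg cells most points lie below 0.

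Beyond the 47, a wider list of 147 genes of the same pathway had 144 tested. In Th17 against naive cells 27 were higher and 40 lower (46.5% called, median log2 fold change -0.09), in Treg against naive cells 12 higher and 33 lower (31.3%, -0.20) and in Treg against Th17 cells 9 higher and 15 lower (16.7%, -0.06). Total count scaling turned the first of these splits to 38 higher and 16 lower (median 0.15) and the second to 28 and 9 (-0.02), and gave 7 and 20 (-0.12) in the third. On the trimmed-mean scale 57.7%, 43.4% and 38.4% of all genes passed. The medians of the 47 members were 0.12, -0.14 and -0.15, and those of all genes -0.03, -0.00 and 0.02. Both lists thus held changes of either direction. Among snoRNP assembly factors Naf1, which delivers box H/ACA proteins to new guide RNAs, rose from 6.65 and 5.11 CPM in naive to 28.6 and 20.7 CPM in Th17 and 35.7 and 43.5 CPM in Treg libraries. Its libraries did not overlap between types, and it passed in all 3 comparisons (log2 fold change 2.07 ± 0.24, 2.75 ± 0.24 and 0.68 ± 0.22 (SE), adjusted p = 4.5e-06, 4.6e-07 and 0.0222). Pop1, a protein of the RNases MRP and P, had 12.9 and 10.4 CPM in naive, 72.6 and 49.1 CPM in Th17 and 20.2 and 22.5 CPM in Treg libraries. It was highest in Th17 cells (log2 fold change 2.38 ± 0.23 (SE), adjusted p = 5.7e-07, against naive cells). Its partner Rpp40 went the other way, with 10.6 and 13.3 CPM in naive libraries and 2.06 to 3.43 CPM in the other 4 (log2 fold change -2.02 ± 0.33 in Th17 and -2.12 ± 0.34 (SE) in Treg cells, adjusted p = 0.000126 and 0.000148).

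On the trimmed-mean scale, 10 of 45 further small-subunit factors were higher and 12 lower in Th17 than naive cells, and 5 higher and 9 lower in Treg than naive cells. That is 48.9% and 31.1% called, beside 57.7% and 43.4% of all genes. Nop9, Tbl3 and Bysl led the rises in Th17 cells (log2 fold change 1.38, 1.17 and 1.06, each adjusted p at most 0.000268), and Emg1, Nol7 and Dimt1 the falls (-1.33, -1.30 and -0.91, each adjusted p at most 0.00303). Of 52 large-subunit factors tested, 9 were higher and 17 lower in Th17, and 4 higher and 13 lower in Treg than naive cells (50.0% and 32.7% called). Pelp1, Pa2g4 and Urb2 were higher in Th17 cells (1.44, 1.30 and 1.19), and Npm3, Mdn1 and Nsun5 lower (-1.27, -1.17 and -0.96). Of 15 further RNA polymerase I subunits and initiation factors none was higher and 6 were lower in Th17 than naive cells, among them Taf1a of the promoter selectivity factor (log2 fold change -1.01 ± 0.20 (SE), adjusted p = 0.000674). In Treg cells 6 of the 15 were lower and 1 higher, the polymerase subunit gene Cd3eap (0.83 ± 0.19, adjusted p = 0.00321). Shares called of the 15 were 40.0% and 46.7%, beside 57.7% and 43.4% of all genes.

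A list of Myc, Max and nucleolar stress genes had 11 tested of 12. It holds Myc as well as genes that oppose it, so its pooled counts give no direction for the pathway. In Th17 against naive cells 7 were higher and 2 lower (median log2 fold change 0.65, 81.8% called beside 57.7% of all genes). In Treg against naive cells 8 were higher and none lower (0.62, 72.7% beside 43.4%). In Treg against Th17 cells 3 were higher and 1 lower (0.16, 36.4% beside 38.4%). Myc had 88.7 and 91.6 CPM in the naive, 315 and 323 CPM in the Th17 and 377 and 308 CPM in the Treg libraries. The naive libraries were below all others, with a log2 fold change of 1.82 ± 0.17 (SE) in Th17 (adjusted p = 4.5e-07) and 1.92 ± 0.17 in Treg cells (adjusted p = 4.6e-07), and Treg and Th17 libraries overlapped in range (0.10 ± 0.16, adjusted p = 0.668). Max, the partner of Myc, had 164 and 185 CPM in the naive, 77.5 and 76.1 CPM in the Th17 and 261 and 248 CPM in the Treg libraries. It was lowest in Th17 cells (log2 fold change -1.18 ± 0.16 (SE), adjusted p = 1.5e-05, against naive cells) and higher in Treg than Th17 cells (1.73 ± 0.16, adjusted p = 8.2e-07). Mxi1, for a Max partner that opposes Myc, rose in both (2.35 ± 0.17 and 1.99 ± 0.16 (SE), adjusted p = 2.3e-08 and 2.4e-07). Of the 82 cytosolic ribosomal protein genes tested, of 85 listed, 75 were lower and 3 higher in Th17 than naive cells with a median log2 fold change of -1.62, and 61 lower and 2 higher in Treg than naive cells with a median of -0.83. In Treg against Th17 cells 51 were higher and 2 lower, with a median of 0.72. Total count scaling kept these directions, with medians of -1.37, -0.64 and 0.67. Of the 47 assembly genes only Nop10 fell by as much as the first of these medians. Ribosomal protein mRNAs are short and have many processed pseudogenes, so their counts are less certain, and proliferation markers passed as higher for 12 of 12 in Th17 and 11 of 12 in Treg against naive cells.

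**Figure D5:**
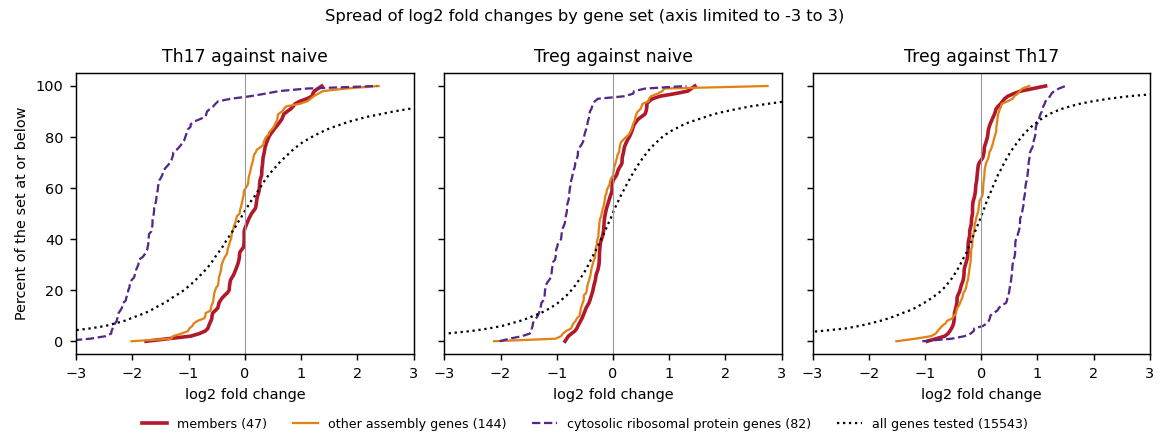
Percent of each gene set at or below a given log2 fold change (x axis, from -3 to 3) in the 3 comparisons, for the 47 members, 144 other assembly genes, 82 cytosolic ribosomal protein genes and all 15543 genes tested. The member and assembly curves are steep around 0, the all-gene curve is flatter, and the ribosomal protein curve is shifted to medians of -1.62, -0.83 and 0.72.

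The counts of some members could include reads of a neighbour. In GENCODE release M21, exons of 19 members overlap an exon of another gene, 18 of them on the opposite strand, and the use of strand in counting is not stated by the labels or headers. For the members with the clearest changes the neighbours were low: Hsf2bp, opposite Rrp1b, averaged 0.306 CPM in naive, 0.483 CPM in Th17 and 3.59 CPM in Treg cells, and the non-coding RNA 9530027J09Rik, opposite Utp14a, stayed at or under 0.763 CPM. Spns2, opposite Mybbp1a, stayed at or under 0.327 CPM. Mroh1, opposite Bop1, averaged 60.7 CPM in naive, 74.5 CPM in Th17 and 91.0 CPM in Treg cells, and Mpp1, opposite Dkc1, 60.8, 63.5 and 384.3 CPM in the same order, so levels of Bop1 and Dkc1 are less certain. The same holds for 4 members without a call: Pbrm1, opposite Gnl3, averaged 161, 174 and 154 CPM in that order, Idh3b, opposite Nop56, 153, 110.5 and 130.3 CPM, Rmnd5b, opposite Nhp2, 62.8, 45.2 and 61.3 CPM, and Lgals8, opposite Heatr1, 68.8, 12.7 and 67.7 CPM. Parp3, opposite Rrp9, averaged 110 CPM in naive, 83.1 CPM in Th17 and 80.4 CPM in Treg cells, above Rrp9 itself at 61.3, 44.6 and 48.3 CPM, and Rrp9 was called lower in Th17 than naive cells. Carf, opposite Wdr12, averaged 11.01, 9.06 and 9.33 CPM, beside 53.4, 52.9 and 36.3 CPM for Wdr12. Noc4l, Nop2, Nop10, Imp3 and Utp20 shared no exon bases with another annotated gene.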

How the data were processed

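Wild-type naive T, Th17 and Treg cells were profiled by mRNA-seq, 2 libraries a type, with RNA from a micro-scale column kit, per the labels' protocols. Per the submitters' processing notes, cutadapt, STAR and DESeq2 were used with build mm10, and no versions appear there. The counting tool and its use of strand are not stated by these notes, the labels or the headers. The deposited file is a single table in which the authors list counts for 54532 genes, which are whole numbers and not normalized. Further columns are, per the file headers, the authors' log2 fold changes and adjusted p-values, and 6 per-library FPKM columns that were not used. Columns carry the numbers 1 and 5 and sample titles 1 and 2, so columns were matched to types, not to single samples. Coordinates are those of the table, and 98.1% of its genes match GENCODE M21 on GRCm38.

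Counts were tested with edgeR 4.0.16 in R 4.3.3 by its quasi-likelihood F-test, after TMM scaling and filterByExpr (minimum count 10). A single fit to the 6 libraries estimated a mean for each type, leaving 3 residual degrees of freedom. P-values were adjusted by Benjamini-Hochberg over 15543 genes and called under 0.05. CPM use TMM-scaled library sizes. The SE was derived from the log2 fold change and its F statistic. A floor of 3 counts is 0.160 to 0.207 CPM, for counting error only. Alternatives were total count scaling, RLE size factors, DESeq2 1.42.0, limma-voom (limma 3.58.1), no filter, a fit of 2 types, a replicate block and leaving out each library, 13 per comparison.

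No 2 libraries of a type matched within sampling noise: chi-square over genes was 33.0 (naive), 17.4 (Th17) and 15.0 (Treg) times its degrees of freedom. The members, the gene lists and the rule for naming genes were chosen with earlier results of these data known. The rule gives every library's value for 19 core members and for the largest rise and fall of each role group in each comparison. It names the other members, and up to 3 called genes per direction from each list of other pathway genes, of which some are left out here for length. The rule also names Myc, and Max, Mxi1 and neighbouring genes follow their lists or positions. No gene set test was run. Motif matches use the 250 bases before RefSeq starts.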

Additional observations from a re-analysis of the deposited data

How the results depend on the processing

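No member call changed direction under any of the 13 alternatives per comparison. Of 1833 values for a member under an alternative, 1690 kept their side of the threshold, 93 lost a call and 50 gained one. Scaling by total count gave 22 members higher and 3 lower in Th17 against naive cells and 10 higher and 2 lower in Treg against naive cells, and a summed member level of 5461 CPM in naive cells. That scaling also moved the median log2 fold change of all genes up, by 0.23 and 0.18 in these comparisons, and the part of that shift in the counts was not tested. Leaving out 1 library gave 14 to 19 calls in Th17 against naive cells (5 to 12 higher, 2 to 9 lower), 4 to 13 in Treg against naive cells (3 to 6 higher, 1 to 8 lower) and 3 to 11 in Treg against Th17 cells (1 to 2 higher, 1 to 9 lower). A lone library was then assumed to vary like the other groups. Calls over all genes tested fell as well when the library left out belonged to a compared type.

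With the replicate number as a block, 10 members were higher and 8 lower in Th17 against naive, 7 and 7 in Treg against naive, and 2 and 8 in Treg against Th17 cells. Same-numbered libraries deviated together with correlations of 0.02 (naive and Th17), 0.21 (naive and Treg) and 0.06 (Th17 and Treg), so the numbers are not shown to pair the samples. With 2 libraries a type, an adjusted p above the threshold does not show that a member was alike in 2 types. No member passed with a log2 fold change nearer 0 than -0.43 (Nop14), and the median SE was 0.18.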

Other observations

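The mitochondrial ribosome is built by a separate set of genes. Of its 77 protein genes tested, of 78 listed, 7 were higher and 21 lower in Th17 than naive cells (median log2 fold change -0.09), 4 higher and 11 lower in Treg than naive cells (-0.15), and 6 higher and 3 lower in Treg than Th17 cells (-0.02). Shares called were 36.4%, 19.5% and 11.7%, beside 57.7%, 43.4% and 38.4% of all genes. With total count scaling the medians became 0.16, 0.04 and -0.07, with 18 higher and 10 lower, 11 and 4, and 5 and 4. On the trimmed-mean scale the medians of the 47 nucleolar members were 0.12, -0.14 and -0.15. On that scale the medians of the 2 sets were close in Treg against naive cells and opposite in sign in Th17 against naive cells. With total count scaling the members' medians were 0.35, 0.04 and -0.21, so that both sets were above 0 in Th17 against naive cells. Medians of the cytosolic ribosomal protein genes, at -1.62, -0.83 and 0.72, were larger in size than those of either set.

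Among RNA exosome and cleavage genes, the exosome subunit gene Exosc8 had 81.8 and 94.7 CPM in naive, 132.4 and 131.7 CPM in Th17 and 64.4 and 62.9 CPM in Treg libraries, so that the 3 types did not overlap. It was lower in Treg than Th17 cells (log2 fold change -1.05 ± 0.15 (SE), adjusted p = 6.9e-05). Mphosph6, an exosome-associated protein gene, was also lower there (-1.26 ± 0.23, adjusted p = 0.000608). Nop53, a large-subunit factor, had 396.4 and 460.4 CPM in naive, 257.4 and 269.6 CPM in Th17 and 471.8 and 480.3 CPM in Treg libraries, and was higher in Treg than Th17 cells (0.85 ± 0.17, adjusted p = 0.00105).

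In the authors' deposited table, 15 of the 47 members passed an adjusted p under 0.05 in Th17 against naive cells, 9 higher and 6 lower. Of all genes with a value there, 7683 of 23872 passed. In Treg against naive cells the same deposited table gave 11 of the 47, 5 higher and 6 lower, beside 5683 of 23764 genes. There the members thus passed about as often as all genes with a value, unlike in the tests above. Those genes outnumber the 15543 tested here, so the backgrounds of the shares are not alike.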
